A study of Mus musculus with 6 samples.

Results

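The genes described here are the zinc finger factors Egr1, Egr2 and Egr3, the orphan nuclear receptors Nr4a1, Nr4a2 and Nr4a3, and the Egr corepressors Nab1 and Nab2. They were found by matching the Ensembl identifiers of the deposited count table to the GRCm38 annotation, and make up 8 of its 16312 genes. All 8 passed the filter on low counts. The table comes from haematopoietic stem cells (HSCs), the self-renewing cells at the top of blood formation, which flow cytometry sorted out of marrow taken from male C57BL/6N mice. The young group held 3 B6 control animals aged 8 to 12 weeks and the old group 3 B6 control animals aged 22 months, and these served as controls in a parabiosis study, in which animals are joined surgically. No source used here names the sort markers or the cell number. The question is how the transcripts of these regulators differ between HSCs of old and young mice.

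Immediate early genes are transcribed within minutes of a stimulus without new protein synthesis, and many of their products are transcription factors that set the next wave of transcription. Egr proteins bind GC-rich DNA through zinc fingers. Nab1 and Nab2 bind Egr proteins and repress their activity, and Nab2 is itself an Egr target, which closes a feedback loop. Nr4a proteins are nuclear receptors without a known classical ligand, whose activity follows their abundance. In HSCs, Egr1 and the Nr4a factors are known as restraints on proliferation.

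The 6 libraries held between 12494557 (old replicate 2) and 30931680 counts, and 14288 genes were tested. Members were chosen from the contrast of old with young, so their differences are given as a description, without a test. Levels are CPM, counts scaled to a common library size with TMM factors, and a fold change is old over young from edgeR with its standard error (SE). A mean level in CPM is followed by its SD over the 3 libraries of the group. All 15 listed HSC markers were measured, with a summed level of 4361.3 to 5047.7 CPM in young and 4707.0 to 5148.0 CPM in old libraries. The old libraries were numbered 28, 29 and 30 and the young ones 1, 5 and 24 in the labels, so any step that followed these numbers cannot be told apart from age. In sorted bulk cells, fewer cells that transcribe a gene and less RNA per cell cannot be told apart either.

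Egr1 was the most abundant of the 6 factors in both groups and stood about an order of magnitude higher in old mice. It lies on chromosome 18 from 34859823 to 34864984. Its level was 93.4, 113.1 and 95.7 CPM in young replicates 1, 2 and 3, and 808.8, 1041.3 and 1148.2 CPM in old replicates 1, 2 and 3. The groups did not overlap, and the lowest old library was far above the highest young one. The log2 fold change was 3.31 ± 0.15 SE, the smallest SE among the 6 factors. Per kilobase of exon Egr1 ranked between 1628 and 2173 among 16301 genes in the young libraries and between 132 and 160 in the old ones. Egr1 alone took 0.00934% to 0.0113% of TMM-scaled counts in young and 0.0809% to 0.115% in old libraries.

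Egr3, a family member known from lymphocyte and neuronal activation, lies on chromosome 14 from 70077203 to 70082614. It was measured at 5.03, 2.0 and 1.1 CPM in young replicates 1, 2 and 3, and at 22.3, 23.6 and 34.5 CPM in the old ones. Every old library was above every young one. The young libraries were spread widely, and the log2 fold change of 3.33 ± 0.48 SE moved to 4.12 without young replicate 1, the highest young library.

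Egr2, a factor of myelin formation and of lymphocyte tolerance, lies on chromosome 10 from 67535475 to 67542188 and was the scarcest member in young mice. Its counts were 4, 9 and 18 in young replicates 1, 2 and 3, or 0.190, 0.353 and 0.550 CPM. Old replicates 1, 2 and 3 had 59, 12 and 85 counts, or 2.49, 1.01 and 3.89 CPM. The groups did not overlap, but the 12 counts of old replicate 2, with an exact Poisson 95% interval of 6.20 to 21.0, set the margin. This interval covers counting error only. The log2 fold change was 2.73 ± 0.73 SE, and it ran from 2.25 without old replicate 3 to 3.15 without young replicate 3. Egr4, the remaining Egr gene and no member here, had 0, 0 and 1 count in the young and 16, 7 and 17 counts in the old libraries.

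The promoter of Egr2 is shown because it holds a CArG box, the site of serum response factor (SRF) through which many immediate early genes answer growth factors. Sequences are from RefSeq on GRCm38.p6, in windows of 250 bases before to 50 after a start. Windows were available for 6 of the 8 members. Egr1 and Egr3 had none, so their promoters were not searched. The longer stretches printed here leave out bases in annotated exons. The stretch below is chr10:67537619-67537868 on the plus strand, and capitals mark the CArG box and 2 matches to TGACG, the half-site of the cyclic AMP response element (CRE).
Egr2: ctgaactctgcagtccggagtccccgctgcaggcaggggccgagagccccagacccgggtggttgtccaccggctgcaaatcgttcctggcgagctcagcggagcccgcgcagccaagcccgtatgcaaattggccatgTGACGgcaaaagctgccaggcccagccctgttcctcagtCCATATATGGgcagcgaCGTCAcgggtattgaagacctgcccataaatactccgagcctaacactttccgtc
The CArG box began at position −72 from this start. Another Egr2 start, which lies upstream at 67537566, also had a CArG box at position −72, shown in capitals in chr10:67537484-67537513.
Egr2 upstream start: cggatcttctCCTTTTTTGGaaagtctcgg
A CArG box was found in 1.63% of the 32851 promoter windows of the RefSeq table. Of the 5 Egr2 windows 4 held one, of which 3 overlap around the same box. The windows of Nab1, Nab2, Nr4a1, Nr4a2 and Nr4a3 held none.

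Nr4a1 showed the largest fold change of the 8 genes. Its product, also called Nur77, is an orphan nuclear receptor that antigen and growth factor signals induce in blood cells, and the gene lies on chromosome 15 from 101254269 to 101274795. Its level was 5.74, 1.37 and 4.31 CPM in young replicates 1, 2 and 3, and 51.2, 41.4 and 68.3 CPM in the old ones. The groups did not overlap, and young replicate 2 was well below the other young libraries. The log2 fold change was 3.82 ± 0.42 SE, or 3.43 without young replicate 2.

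Nr4a2, also called Nurr1, is best known from dopamine neurons and lies on chromosome 2 from 57106830 to 57124003. It stood at 27.6, 17.1 and 10.6 CPM in young replicates 1, 2 and 3 and at 67.9, 50.9 and 79.4 CPM in the old ones. All old libraries were above all young ones, with a log2 fold change of 1.85 ± 0.31 SE. Nr4a3, also called Nor1, lies on chromosome 4 from 48045153 to 48086447 and was scarce. It had 2.37, 1.02 and 1.31 CPM in young replicates 1, 2 and 3 and 4.43, 2.18 and 5.50 CPM in the old ones. Here the groups overlapped, because old replicate 2 (26 counts) was below young replicate 1 (50 counts) in CPM. The log2 fold change of 1.37 ± 0.57 SE was the smallest of the 6 factors.

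The 3 Nr4a promoters are shown together because each window held 4 CRE half-sites, which bind CREB and related factors downstream of cyclic AMP and calcium signals. They are chr15:101266596-101266845 (plus strand) for Nr4a1, chr2:57124004-57124253 (minus strand) for Nr4a2 and chr4:48045055-48045152 (plus strand) for Nr4a3, where the rest of the window lies in an annotated exon. Capitals mark TGACG on either strand (CGTCA on the printed one), the variant TGCGTCA that contains it, and matches to GCGNGGGCG, the site that Egr proteins bind.
Nr4a1: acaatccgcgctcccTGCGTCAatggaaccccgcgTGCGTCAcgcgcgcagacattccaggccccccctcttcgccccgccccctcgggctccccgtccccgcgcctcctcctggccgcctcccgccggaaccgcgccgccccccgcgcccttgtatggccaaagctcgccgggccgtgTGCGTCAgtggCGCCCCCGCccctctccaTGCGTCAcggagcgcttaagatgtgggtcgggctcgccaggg
Nr4a2: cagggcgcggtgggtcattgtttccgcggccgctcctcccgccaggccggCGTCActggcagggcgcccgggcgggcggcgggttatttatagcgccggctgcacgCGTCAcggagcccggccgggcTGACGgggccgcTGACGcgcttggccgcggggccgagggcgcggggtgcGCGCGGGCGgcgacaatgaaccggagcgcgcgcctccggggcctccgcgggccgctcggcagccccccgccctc
Nr4a3: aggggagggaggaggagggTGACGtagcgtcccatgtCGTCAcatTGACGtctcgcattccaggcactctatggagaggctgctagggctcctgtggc
At least 1 half-site occurred in 20.8% of the 32851 windows, and 4 or more in 76 of them (0.231%). All 4 half-sites of Nr4a1 lay within TGCGTCA, which was searched for after its sequence was seen, and no other window in the table held 3 or more copies of it. The full CRE, TGACGTCA, was in 1.79% of all windows and in none of those of the 6 members with a window. The Nr4a response element AAAGGTCA, which Nr4a proteins bind as monomers, was in 1.51% of all windows. None of the windows of these 6 members held it. These matches describe letters, and binding was not measured here.

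Egr sites occurred once in the Nr4a1 window and once in the Nr4a2 window, and 3 times in that of Nab1. The share of all windows with at least 1 was 5.55%, and 64 windows (0.195%) had 3 or more. The RefSeq start of Nab1, 52500448, lies inside the GENCODE gene, which begins on this strand at 52500679. All but 19 bases of its window are exonic in that annotation, including the 3 matches. These are shown in capitals on the minus strand, at chr1:52500570-52500599, chr1:52500538-52500567 and chr1:52500467-52500496.
Nab1, position −141: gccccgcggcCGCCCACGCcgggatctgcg
Nab1, position −109: actcggccgcGCGTGGGCGggagccggagc
Nab1, position −38: gcggggcgggGCGGGGGCGgcggaggtggc
The GC content of the windows was 81.7% for Nab1 and Nr4a2 and 72.3% for Nr4a1. The single window of Nab2 held none of the motifs searched.

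**Figure D1:**
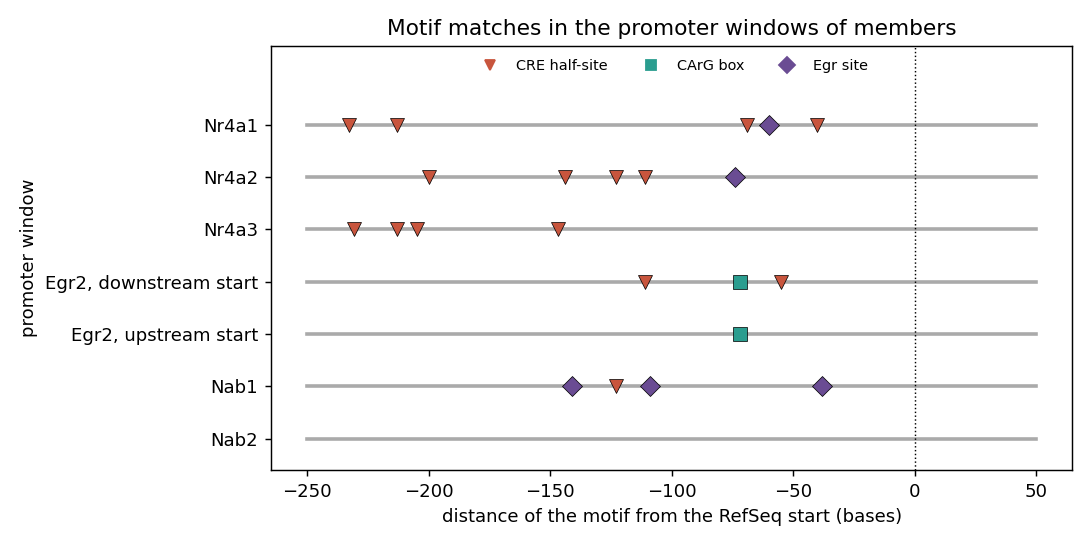
Motif matches in 7 promoter windows of 6 members, by distance in bases from the RefSeq start (x axis). Each Nr4a window carries 4 CRE half-sites, the 2 Egr2 starts drawn, of 5, a CArG box at −72, and Nab1 3 Egr sites.

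The corepressors differed little between the groups. Nab1, on chromosome 1 from 52457294 to 52500679, was measured at 138.6, 148.3 and 141.6 CPM in young replicates 1, 2 and 3 and at 142.3, 161.5 and 164.6 CPM in the old ones. Its log2 fold change was 0.13 ± 0.11 SE. Nab2, on chromosome 10 from 127660918 to 127668568, had 16.1, 21.0 and 24.9 CPM in young replicates 1, 2 and 3 and 28.4, 24.7 and 29.7 CPM in the old ones, a log2 fold change of 0.42 ± 0.23 SE. The groups overlapped for both genes. Nab2 shares its locus with Stat6 and Nemp1 on the opposite strand, and with no strand setting given in the sources used here its counts carry that uncertainty.

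Of the 8 members, 5 had all old libraries above all young ones, against 11.6% of all genes tested, and 4 (Egr1, Egr3, Nr4a1 and Nr4a2) passed an adjusted p of 0.05 in edgeR, against 2.45% of all genes tested that passed in this direction and 1.54% in the other. DESeq2 added Egr2, against 7.47% of its genes that passed in either direction, and limma-voom called 3.95% of all genes. All 8 members had a value above 0, against 48.2% of all genes tested. Since this contrast chose the members, no such count is read as a result. The median log2 fold change was 2.29 over the members and −0.02 over all genes tested. All 8 differences kept their sign in 10 alternative fits with another tool, scaling or filter or with 1 library left out. Egr1 ran from 3.21 to 3.45 there, Nr4a1 from 3.43 to 4.21, Nr4a2 from 1.57 to 2.26 and Nr4a3 from 1.09 to 1.79.

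**Figure D2:**
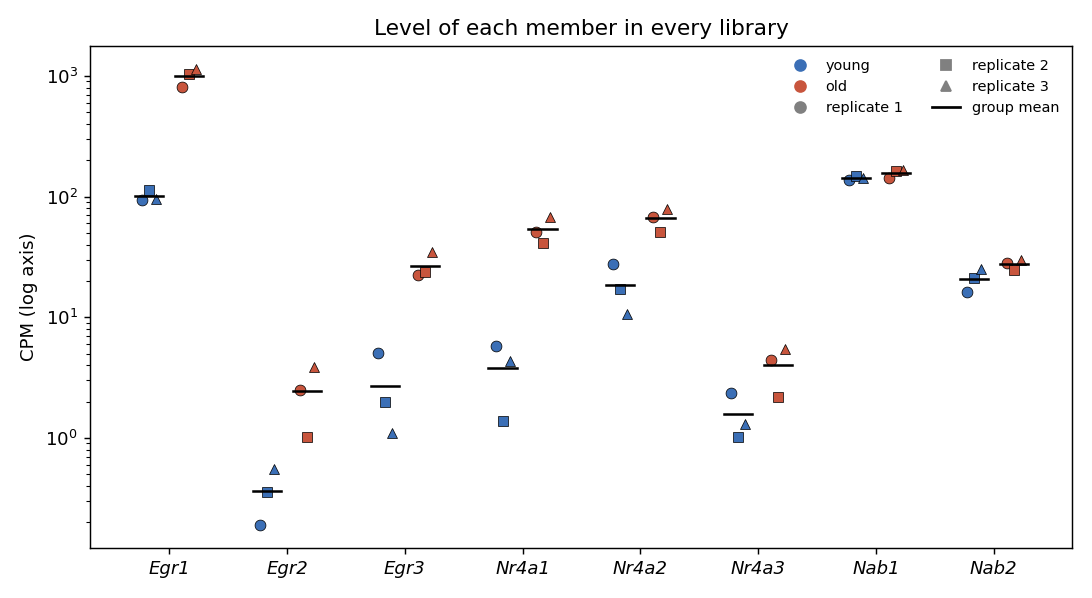
Level of each member (CPM, log axis) in the 3 young (blue) and 3 old (red) libraries, with symbols for replicates and lines for group means. The groups are separate for Egr1, Egr2, Egr3, Nr4a1 and Nr4a2 and overlap for Nr4a3, Nab1 and Nab2.

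**Figure D3:**
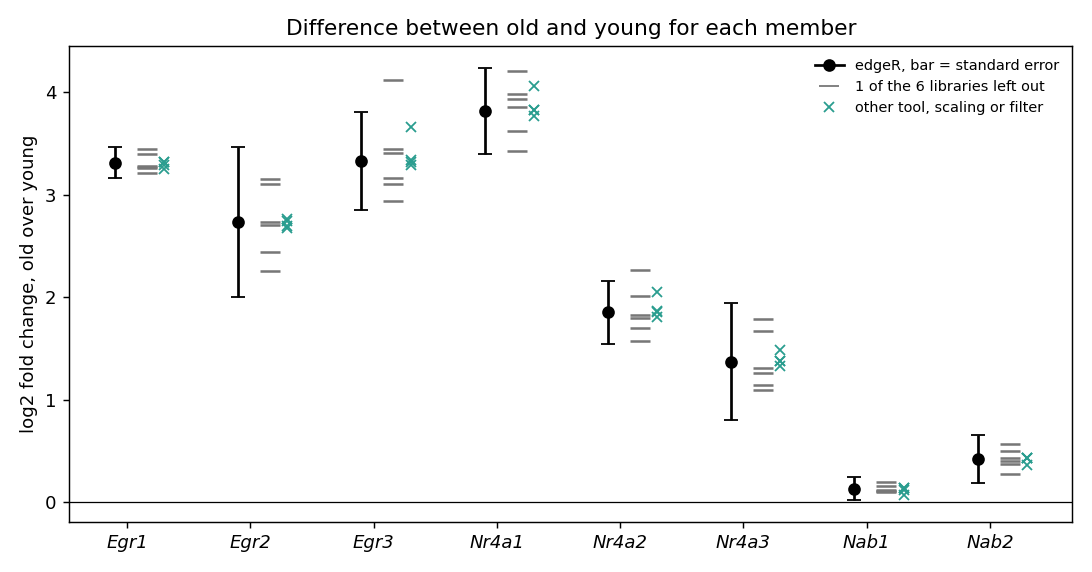
Log2 fold change of old over young for each member, with edgeR's estimate and SE (black), 6 fits that leave out 1 library (grey) and 4 with another tool, scaling or filter (green). Among the 6 factors Egr1 has the narrowest range, from 3.21 to 3.45, and Egr3 reaches 4.12 without young replicate 1.

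Levels of different genes were compared per kilobase of exon. In young mice the order was Nab1 (34.8 ± 1.21 CPM per kilobase), Egr1 (22.5 ± 2.40), Nab2 (7.02 ± 1.5), Nr4a2 (4.54 ± 2.12), Nr4a1 (1.08 ± 0.634), Egr3 (0.615 ± 0.467), Nr4a3 (0.262 ± 0.119) and Egr2 (0.107 ± 0.0531), each with its SD over 3 libraries. The ranges of Nab2 and Nr4a2, of Nr4a1 and Egr3, and of Egr3 and Nr4a3 overlapped. For Nab2 with Nr4a2 and Nr4a1 with Egr3 the order changed between replicates, so these neighbours cannot be ordered. Egr3 ranked above Nr4a3 within each young library, at 10871, 12432 and 13568 against 12468, 13721 and 13763 in replicates 1, 2 and 3. In old mice Egr1 led with 222.9 ± 38.7, followed by Nab1 (38.1 ± 2.94), Nr4a2 (16.3 ± 3.53), Nr4a1 (15.3 ± 3.88), Nab2 (9.38 ± 0.889), Egr3 (6.08 ± 1.53), Egr2 (0.725 ± 0.425) and Nr4a3 (0.674 ± 0.283). There the libraries of Nr4a2 and Nr4a1, and those of Egr2 and Nr4a3, overlapped. Measured against the longest transcript, Nr4a1 stood at 21.0 and Nr4a2 at 18.5, the opposite order.

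Within each family the composition differed between the Egr and Nr4a genes. Egr1 made up 96.8% ± 1.97 of the summed Egr1, Egr2 and Egr3 level per kilobase in the young group and 97.0% ± 0.525 in the old one (SD, n = 3), a difference smaller than the spread. Nr4a1 made up 18.5%, 8.19% and 30.3% of the Nr4a family in young replicates 1, 2 and 3 and 45.5%, 47.8% and 48.7% in the old ones. Nr4a2 held the complementary part, with 76.5% ± 12.0 in young and 50.6% ± 1.62 in old mice. For neither gene did a young share fall within the old range. The ratio of Egr1 to Nab1 per kilobase was 0.616 to 0.697 in young and 5.2 to 6.38 in old libraries, so that Egr1 transcripts were fewer than those of Nab1 in young mice and outnumbered them in old mice. For Nab2 the ratio ran from 2.52 to 3.81 in young and from 18.7 to 27.7 in old libraries.

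Replicate spread was wide for Egr3, Nr4a1 and Nr4a2 beside genes of a similar mean log2 CPM over all 6 libraries. A gene that differs much between the groups is so matched at a level between them. For Nr4a1 this level was 3.73 log2 CPM, while its young libraries held 1.37 to 5.74 CPM. Scarcer genes spread more, so these ranks are not independent of the difference between the groups. The pooled SD of log2 CPM within the age groups was 0.79 for Nr4a1, 0.54 for Nr4a2 and 0.79 for Egr3. It exceeded that of 98.5%, 98.5% and 93.9% of the genes within 0.5 log2 units of each one's level, whose median SDs were 0.36, 0.25 and 0.44. Egr1 had an SD of 0.21, above that of 89.6% of its 579 comparison genes. Nab1, with 0.09, was above 11.1% and Nab2, with 0.24, above 35.4% of theirs. Egr2 (0.79) and Nr4a3 (0.64) lay at 49.8% and 48.1%, close to the middle of genes with as few counts.

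Some libraries stood high or low for several members at once. Old replicate 3 had the highest level of its group for all 8 members, and old replicate 2 the lowest for Egr2, Nr4a1, Nr4a2, Nr4a3 and Nab2. Old replicate 2 was also the shallowest library. Young replicate 1 was highest of its group for Egr3, Nr4a1, Nr4a2 and Nr4a3, by 0.65 to 1.13 log2 units above the group mean, but lowest for Egr1, Egr2, Nab1 and Nab2. As a description over 6 deviations from 2 group means, with 4 degrees of freedom, the correlation was 0.94 for Egr3 with Nr4a2, 0.75 for Nr4a1 with Nr4a3, 0.73 for Nr4a2 with Nr4a3 and 0.3 for Nr4a1 with Nr4a2. Egr1 had −0.37 with Nr4a1, −0.01 with Nr4a2 and 0.98 with Nab1, whose deviations were at most 0.13 log2 units in size. Correlations with Nab2 were 0.83 for Egr2, −0.8 for Egr3 and −0.65 for Nr4a2. For Egr1, Nr4a1, Nr4a3 and Nab1 they lay between −0.16 and 0.1. Large values thus also occurred outside Egr3 and the Nr4a genes, and no shared behaviour is read from the pairs given.

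**Figure D4:**
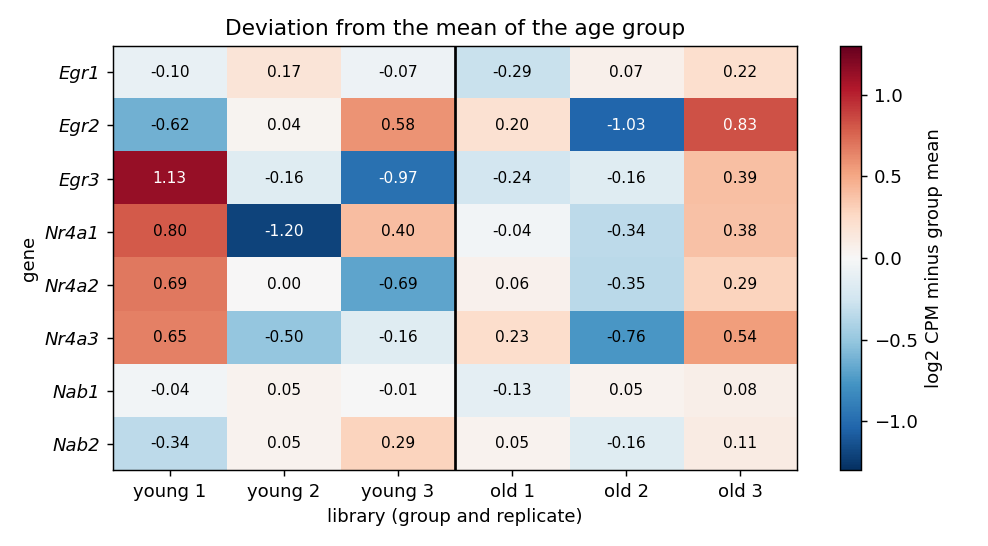
Deviation of each member (rows) from the mean of its age group in each library (columns), in log2 CPM. Young replicate 1 is high for Egr3 and the 3 Nr4a genes, and old replicate 3 is above the mean for all 8 members.

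Lists of connected genes were tested in the same fit. Results of this series were known when these lists were written, so their p-values are not independent of that choice. Of 18 genes of the Ras-ERK pathway and of SRF and its partners, which drive Egr transcription, none passed in edgeR. Over all genes tested 3.99% passed in either direction. The list's median log2 fold change was −0.03, and 2 of its genes had an unadjusted p under 0.05, which 16.5% of all genes tested had. Srf itself, picked after its values were seen, stood at 23.1 ± 13.8 CPM in the young group and at 14.9 ± 2.58 CPM in the old one, with an adjusted p of 0.462 in edgeR. The SRF coactivator gene Mrtfa had the smallest p, with a log2 value of −0.68 ± 0.21 SE (adjusted p = 0.107 in edgeR). It passed in DESeq2 (adjusted p = 0.0316), and no listed gene passed in limma-voom. Mrtfb (0.24), the ERK target kinase gene Rps6ka3 (0.33) and the ternary complex factor gene Elk3 (−0.23) followed.

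Among 23 CREB, calcium and MEF2 regulators, which act on Nr4a promoters, 1 rose, or 4.35%, against 3.99% of all genes tested that passed in either direction. This was Mef2c, a transcription factor that drives Nr4a1 in lymphocytes, at 431.2, 407.6 and 367.3 CPM in young and 559.7, 653.5 and 581.3 CPM in old replicates 1, 2 and 3. The libraries did not overlap, and the log2 fold change was 0.57 ± 0.11 SE (adjusted p = 0.0101 in edgeR), with a range of adjusted p from 7.85e-05 to 0.0569 over the alternatives. Without old replicate 2 Mef2c did not pass (adjusted p = 0.0569). Crem, itself induced by cyclic AMP, had a log2 value of 0.89 ± 0.35 SE (adjusted p = 0.219). Nfatc1 (−0.38) and Prkacb (0.25) did not pass either, and the list median was −0.01.

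Of 19 tested genes known as Egr targets in various cells, none passed in edgeR, against 3.99% of all genes tested. An unadjusted p under 0.05 was found for 3, a share close to the 16.5% of all genes tested. The median log2 fold change of the list was 0.10. Cdkn1a, which encodes the cell cycle inhibitor p21, came nearest. It stood at 4.08 ± 0.917 CPM in the young and 11.3 ± 3.84 CPM in the old group (SD, n = 3). The lowest old library, at 7.69 CPM, was above the highest young one, at 4.75 CPM. Its log2 fold change was 1.47 ± 0.38 SE (adjusted p = 0.0556 in edgeR, 0.00378 in DESeq2, and up to 0.215 over the alternatives). DESeq2 called 1 gene of the list, Cdkn1a, and limma-voom none. The polycomb gene Bmi1, a reported Egr1 target in HSCs, was chosen for mention with its values known. It had 100.7 ± 7.81 CPM in the young group and 118.9 ± 14.0 CPM in the old one, with an adjusted p of 0.423 in edgeR. Fn1 (−0.97), Pdgfa (1.75) and Ccnd1 (0.40) did not pass.

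Nr4a partners and genes reported downstream of Nr4a factors gave 2 of 13 that rose (15.4%), Junb and Jund, and a median of −0.17. Over all genes tested 2.45% passed in this direction. Junb and Jund both encode AP-1 subunits. Junb, itself an immediate early gene, was reported to depend on Nr4a1 and Nr4a3 in myeloid cells. Junb went up from 21.7 ± 4.16 CPM to 183.7 ± 34.9 CPM, with an adjusted p of 3.97e-06 in edgeR. Jund went up from 9.09 ± 2.27 CPM to 35.9 ± 3.28 CPM, with an adjusted p of 0.00086. Ikzf2 (−0.61) and Ikzf4 (0.72), lymphoid zinc finger genes, did not pass in edgeR and passed in DESeq2, which called 4 of the list. Rxra, the partner of Nr4a1 and Nr4a2 in heterodimers, stood at 28.3 ± 1.66 and 25.2 ± 5.68 CPM (adjusted p = 0.775 in edgeR). Cebpa, which encodes a myeloid factor, was at 0.447 ± 0.128 and 0.253 ± 0.232 CPM. Rxra and Cebpa were chosen for mention with their values known.

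The NuRD complex, which Nab proteins recruit through Chd4, had no gene that passed among 13 in edgeR, DESeq2 or limma-voom, with 1 at an unadjusted p under 0.05. Over all genes, 3.99% passed in edgeR, 7.47% in DESeq2 and 3.95% in limma-voom, and 16.5% had an unadjusted p under 0.05 in edgeR. In a list of 13, no call is close to these shares. Of the 13 genes, 11 had a log2 value below 0 and 2 above it, and the median was −0.15. Over all genes tested 48.2% had a value above 0. Chd4, a remodelling enzyme, had −0.24 ± 0.10 SE (adjusted p = 0.265 in edgeR). Gatad2a (−0.23), Hdac1 (−0.19) and Chd3 (−0.19) were near it.

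Other nuclear receptors were set beside the Nr4a family. Of 26 tested, 4 rose and none fell (15.4%), against 3.99% of all genes tested that passed in either direction. The median log2 fold change of the list was 0.32. The progesterone receptor gene Pgr had 30.1, 23.6 and 23.1 CPM in young and 76.9, 76.1 and 74.1 CPM in old libraries, a log2 fold change of 1.57 ± 0.17 SE (adjusted p = 0.000369 in edgeR). The groups did not overlap. The clock gene Nr1d2 had a log2 value of 0.53 ± 0.13 SE and an adjusted p of 0.0475 in edgeR, which passed in 1 of 10 alternatives. Without old replicate 3 the list held 2 calls, Pgr among them.

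**Figure D5:**
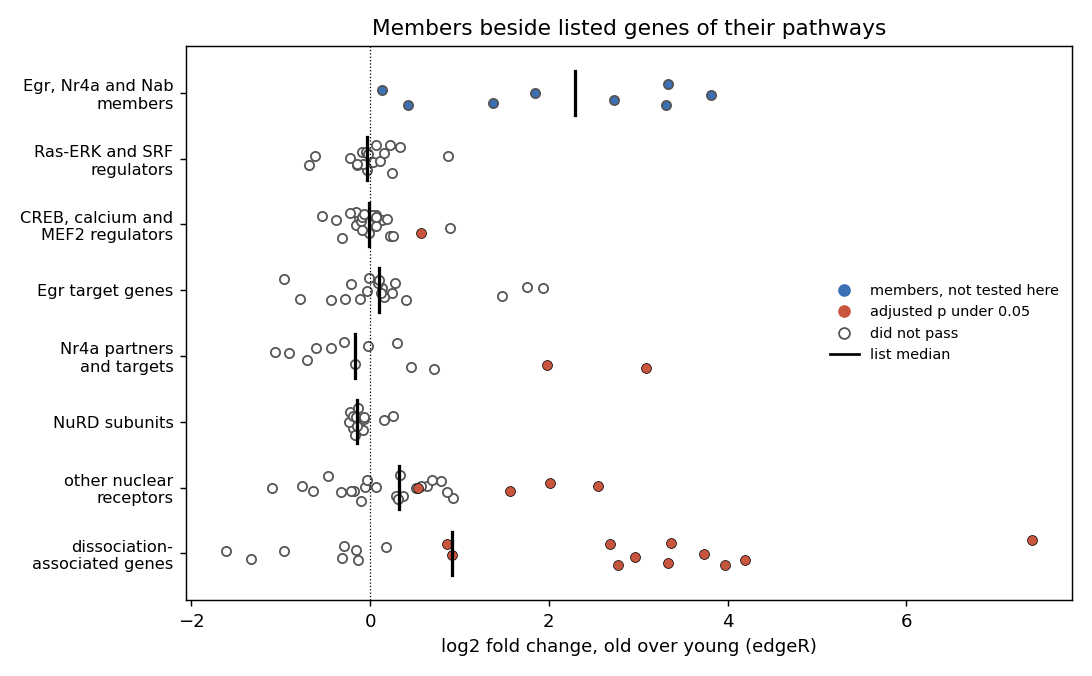
Log2 fold change of old over young (edgeR, x axis) of each tested gene in 8 lists (rows), with filled red points for an adjusted p under 0.05, open points for genes that did not pass, blue points for the members and lines for medians. The members' median is 2.29, and those of the regulator and target lists lie between −0.17 and 0.10.

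For likeness of pattern, 9262 genes with a mean of at least 10 CPM were ranked by Pearson's correlation of log2 CPM with Egr1 and with Nr4a1 over the 6 libraries. Nearest to Egr1 were Aup1 (0.9995), Ptger4 (0.9988), Myo1e (0.9979), Cavin2 (0.9976) and Fam169a (0.9973). Their log2 fold changes were 0.35, 1.5, 1.43, 1.96 and 1.82. Ptger4, a prostaglandin E2 receptor, went from 34.2 ± 1.56 to 96.9 ± 8.39 CPM and Aup1, a protein of lipid droplets, from 28.8 ± 0.328 to 36.6 ± 0.585 CPM. Nearest to Nr4a1 were Rpl9 (0.9981), Ankrd13c (0.9974), Jade3 (0.9903), Atf4 (0.9891) and Btg2 (0.9887), with log2 fold changes of 0.40, 0.48, 0.48, 0.90 and 3.37. Btg2, an antiproliferative immediate early gene, went from 9.28 ± 5.88 to 94.9 ± 26.6 CPM. Such correlations rest on 6 points in 2 age groups and ignore the size of the change, and 192 genes reached 0.95 with Egr1. Among the members themselves Egr1 had 0.94 with Egr3, 0.93 with Nr4a1, 0.73 with Nab1 and 0.74 with Nab2.

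Other transcripts moved with the members. The counts given below can be set beside edgeR's calls among the 14288 genes in the fit. Of those, 2.45% passed with a higher level in old mice and 1.54% with a lower one. Of 19 genes known to respond to tissue dissociation, 11 rose and none fell (57.9%), and the list divides by kind, a split made after its values were seen. Among its 11 genes outside the heat shock family 10 rose, all but Nfkbia. Those with the smallest p were Jun (2.96 ± 0.12 SE, adjusted p = 3.12e-07 in edgeR), Ier2 (2.77), Dusp1 (2.68) and Zfp36 (3.33). Others of the 10 had larger log2 values than these. The summed level of the 11 genes was 313.4 to 375.5 CPM in young and 2748.9 to 2915.1 CPM in old libraries. Among the 8 heat shock and chaperone genes 1 rose, Dnajb1 (0.86 ± 0.13 SE, adjusted p = 0.00311), and their summed level was 6294.1 to 10290.9 CPM in young and 6538.5 to 8175.4 CPM in old libraries. Hspa1a (−1.61), Hspa1b (−1.33), Hsph1 (−0.96), Hsp90aa1 (−0.31), Dnaja1 (−0.29), Hspa8 (−0.16) and Hsp90ab1 (−0.14) did not pass. Young replicate 1, the highest young library for Egr3 and the Nr4a genes, was also the highest young library for Hspa1b, Hspa8, Hsp90aa1, Hsp90ab1, Hsph1 and Dnaja1, and the lowest for Hspa1a. The part of dissociation in the members' levels was not tested.

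Markers of mature myeloid and erythroid cells summed to less in old than in young libraries. Counts of markers that passed stand against 2.45% of all genes tested that rose in edgeR and 1.54% that fell. The 12 macrophage markers summed to 43.5 to 57.7 CPM in young and 12.8 to 16.3 CPM in old libraries, 7 of 11 tested fell (4 without old replicate 1 and 3 without old replicate 3), and Adgre1, C1qb, Cd5l and Fcna had no count in any old library. The 9 neutrophil markers summed to 16.6 to 237.2 CPM in young and 5.57 to 8.70 CPM in old libraries, and 4 of 5 tested fell in edgeR. That count rests on single libraries. With young replicate 1 left out it was 1, as it was with old replicate 2 or old replicate 3 left out. With old replicate 1 left out it was 0, and for young replicates 2 and 3 it was 6 and 3. Limma-voom called 0 and DESeq2 6. The 10 erythroid markers summed to 93.1 to 316.6 CPM and 63.8 to 70.3 CPM, and 2 of 8 tested fell (Car1 and Klf1), of which 1 still passed when young replicate 1 or a single old library was left out, and 0 in limma-voom. Young replicate 1 was highest in both sums. Of the endothelial markers 2 of 6 tested rose (Cldn5 and Kdr), with sums of 143.7 to 223.2 CPM and 216.5 to 255.3 CPM. None of the tested B cell (3), T and NK cell (4) and megakaryocyte (7) markers passed in edgeR, with 0, 1 and 1 at an unadjusted p under 0.05. The part of such cells in the members' levels was not tested.

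The authors' deposited table gives young over old, so a negative value is higher in old mice. In the authors' deposited table the log2 values were −3.13 for Egr1, −2.73 for Nr4a1, −2.16 for Egr3, −1.27 for Nr4a2 and −0.74 for Nr4a3. Egr2 had −0.26 with an SE of 0.30 in the authors' deposited table, against 2.73 as old over young in edgeR. DESeq2 gave 2.76 ± 0.85 SE for Egr2 as old over young. The mean signal of Egr2 was 29.0 in the authors' deposited table. The mean of its counts over size factors was 30.6, so the mean levels were close. Nab1 (−0.15) and Nab2 (−0.42) in the authors' deposited table were close in size to the edgeR values of 0.13 and 0.42. The direction was the same for all 8 members, and Egr2 differed most in size between both sources. Every Egr and Nr4a member had a smaller size in the authors' deposited table than in edgeR. Whether both sources give the same kind of estimate was not tested.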

How the data were processed

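RNA of the sorted HSCs was purified and made into libraries with kits for low input, per the labels' protocols. Salmon, DESeq2, FastQC, MultiQC and GRCm38 appear in the submitters' processing notes with no version or role. The deposited estimated counts were whole numbers, so none was rounded. The authors' deposited comparison gives per gene a mean signal, a log2 fold change with its error, a score and a p-value. Only log2 values are printed, for Egr2 with the error and the mean signal.

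Columns were matched to samples by title. The title and description of young replicate 2 carry different library numbers. The design calls the samples biological replicates, and replicate numbers follow sample order. P-values set the difference between the groups against the spread between these samples. They cannot separate age from a step that followed the library numbers. The annotation gave a symbol and an exon length (union of exons) for 16301 genes.

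Counts were fitted in R 4.3.3 with edgeR 4.0.16 (default filter with a minimum count of 10 and total of 15, TMM, quasi-likelihood F test, Benjamini-Hochberg threshold 0.05, two-sided). The SE is the log2 fold change over the square root of F. Log2 CPM used a prior count of 2. DESeq2 1.42.0, limma 3.58.1 (voom), library size alone, no filter and leaving out each library were alternatives. The fits were tested on simulated data. Promoter motifs were searched on both strands.

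Members and lists were chosen with earlier results of these data known. Named genes are the members, the 4 of each list with the smallest p, the heat shock genes, and the 5 genes most like Egr1 and Nr4a1. Some genes under this rule are not reported here. Srf, Bmi1, Rxra, Cebpa, Nfkbia, Egr4 and the cell type markers were named outside it, with values known.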

Additional observations from a re-analysis of the deposited data

How the results depend on the processing

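With old replicate 1, 2 or 3 left out, 322, 345 and 245 genes passed in edgeR, against 570 with all libraries, and leaving out any 1 library gave 245 to 473. DESeq2 called 1146 genes, 1 regulator of the Ras-ERK and SRF list (Mrtfa), 1 Egr target (Cdkn1a) and 4 genes of the Nr4a partner and target list. The cause was not tested. Leaving out 1 library gave 4 called members each time, 0 to 1 called CREB, calcium and MEF2 regulators, 2 to 3 other nuclear receptors, 10 to 11 dissociation genes, and 0 Ras-ERK, Egr target or NuRD genes. The Nr4a partner list kept Junb and Jund as its 2 calls in those fits. Hspa1b and Hspa8, with −1.33 and −0.16 and no call, turned to 0.00 and 0.07 without young replicate 1, and over the libraries left out ran from −4.02 to 0.00 and from −0.40 to 0.07. Per kilobase of the longest transcript, Nr4a1 in old mice came to 21.0, Nab1 in young mice to 36.9 and Nab2 in old mice to 10.7 CPM, because these transcripts are shorter than the union of exons. With a prior count of 0.5 the same 5 genes were nearest to Egr1 and to Nr4a1. No paired analysis was possible because the labels give no replicate number shared by the groups. Depth limits Egr2, Nr4a3 and Egr4, whose lowest libraries held 4, 26 and 0 counts.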
